A study of Mus musculus with 10 samples.

Results

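Meiotic prophase genes were examined in whole testes of 10 day old mice. The group was defined by name as 34 genes whose products build the meiotic chromosome axis and synaptonemal complex, hold sister chromatids together, carry out recombination, or mark spermatocytes. Of these 34 genes, 28 were represented by 32 probe sets annotated to 1 gene each, out of 12393 genes on the array, and 22 lay above a threshold for dim probe sets. The other 6 named genes, Sycp2, Syce1, Hormad2, Mei1, Meiob and Mael, were not analysed here.

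The mutant mice were SCARKO mice, a Sertoli cell-selective knockout that removes the androgen response of Sertoli cells, the somatic cells that nurse germ cells inside the tubule. They were compared with control mice that carry the AMH-Cre transgene (AMHCre in the labels), a recombinase driven by a promoter of the anti-Müllerian hormone gene, which is active in Sertoli cells. There were 10 arrays, 5 of SCARKO and 5 of control RNA. The RNA on an array was a pool over 3 littermates, 1 testis from each, so single mice cannot be seen, and SCARKO and control pools were matched as littermate pairs. The strain was not given in the sources used here. Titles and descriptions named opposite genotypes on the 8 arrays of pairs 1 to 4 and the same genotype on the 2 arrays of pair 5. Titles were used throughout. By titles, Rhox5, a homeobox gene that marks androgen action in Sertoli cells, was lower in the SCARKO pool of each of the 5 pairs, at 9.48 ± 1.91 in SCARKO pools and 178 ± 61.7 in control pools (mean signal ± SD, n = 5 each). In pair 5, where titles and descriptions agree, Rhox5 had 9.7 in the SCARKO pool and 212.1 in the control pool. By descriptions, Rhox5 in pairs 1 to 4 would run opposite to pair 5. The targeted gene is not reported here.

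Meiotic prophase is the long stage in which homologous chromosomes pair, exchange DNA and prepare to separate. Cohesin rings with meiosis-specific subunits bind sister chromatids into an axis, axis proteins recruit the machinery that makes and repairs programmed DNA breaks, and the synaptonemal complex then zips the homologs together. In the mouse testis the first germ cells enter this stage before puberty in a synchronous first wave, so that at 10 days early prophase cells are usually the most advanced germ cells, and genes of later spermatocytes and spermatids are turned on afterwards.

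Promoter windows of 4 members are shown because Stag3 and Hspa2 were among the genes that changed, while Hormad1 and Sycp3 were chosen after the search for holding several motif matches. They come from RefSeq (build GRCm38.p6) and run from 250 bases before to 50 bases after an annotated gene start. Capitals mark 2 motifs searched on both strands, CACGTG (an E-box) and GGCGGGAA (an E2F-type site). The windows lie at chr5:138280259-138280558 for Stag3, chr12:76404120-76404419 for Hspa2, chr3:95559427-95559726 for Hormad1 and chr10:88459337-88459636 for Sycp3, all on the plus strand.
Stag3: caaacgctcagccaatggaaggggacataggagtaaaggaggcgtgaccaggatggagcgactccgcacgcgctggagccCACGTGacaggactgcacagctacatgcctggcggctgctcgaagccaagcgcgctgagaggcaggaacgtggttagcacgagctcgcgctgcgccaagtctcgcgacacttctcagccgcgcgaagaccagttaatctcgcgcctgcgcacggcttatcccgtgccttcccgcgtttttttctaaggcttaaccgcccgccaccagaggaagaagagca
Hspa2: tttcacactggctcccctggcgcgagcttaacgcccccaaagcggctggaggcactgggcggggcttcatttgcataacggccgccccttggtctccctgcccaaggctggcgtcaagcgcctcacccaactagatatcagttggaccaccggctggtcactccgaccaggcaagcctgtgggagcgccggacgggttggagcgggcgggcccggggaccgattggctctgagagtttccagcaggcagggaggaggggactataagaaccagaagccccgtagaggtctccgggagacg
Hormad1: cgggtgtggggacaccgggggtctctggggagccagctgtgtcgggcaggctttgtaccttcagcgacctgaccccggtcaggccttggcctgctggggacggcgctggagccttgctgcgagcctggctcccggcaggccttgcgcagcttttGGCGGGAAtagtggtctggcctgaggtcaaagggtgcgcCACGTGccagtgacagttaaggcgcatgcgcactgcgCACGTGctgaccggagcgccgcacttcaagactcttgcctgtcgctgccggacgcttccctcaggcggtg
Sycp3: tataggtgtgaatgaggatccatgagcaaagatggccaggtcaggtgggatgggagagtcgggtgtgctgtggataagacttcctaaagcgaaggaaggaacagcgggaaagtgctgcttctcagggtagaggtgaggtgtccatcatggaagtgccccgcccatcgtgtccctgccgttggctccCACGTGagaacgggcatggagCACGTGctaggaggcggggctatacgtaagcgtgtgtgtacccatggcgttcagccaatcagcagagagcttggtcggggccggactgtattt

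Of 29 members with a promoter window, 9 held CACGTG (31.0%), against 8.09% of all 27025 genes in the RefSeq table. Those 9 were Hormad1, Mael, Piwil1, Stag3, Syce2, Sycp1, Sycp3, Tdrd1 and Tex12. GGCGGGAA was found in 6 of 29 (20.7%), against 2.52% of all genes, namely Hormad1, Msh5, Prdm9, Syce2, Tex12 and Tex14. Hormad1, Syce2 and Tex12 held both. A MYB-type motif, AACNGTC, was found in 3 of 29 (10.3%), against 9.17% of all genes, and the full cAMP response element TGACGTCA in 0 of 29, against 2.03%. None of the 4 motifs contains another. The Stag3 window held 1 E-box, 170 bases before the start, and the Hspa2 window held neither of the marked motifs. These matches describe letters in a window and were not tied to the measured changes.

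Values are Affymetrix signal intensities in linear units, brought to 1 trimmed mean on every array. A log2 fold change is SCARKO minus control, fitted with limma with the littermate pair as a block, and a gene was called at an adjusted p under 0.05 after Benjamini-Hochberg adjustment over all 13576 probe sets above the dim threshold, a signal of 19.3 on the mean log2 scale. A gene with several probe sets was represented by its brightest. In whole testis RNA, fewer cells of a type and less RNA per cell cannot be told apart.

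Small reductions of some of the named meiotic genes were found in SCARKO testes. Of 14 measured meiotic and piRNA genes outside the members, 7 had a negative and 7 a positive log2 fold change. Stag3, Hspa2 and Tex15 were called lower, by 0.42, 0.31 and 0.24 on the log2 scale, and no measured member was called higher. Over all genes measured, 3.52% were called lower (281 of 7973) and 2.17% higher, while 3 of the 22 measured members (13.6%) were called lower. With limma, 9 of the 22 members (40.9%) had a negative fold change and an unadjusted p under 0.05, and 0 had a positive one. Over all genes, 1729 of 7973 (21.7%) had such a p in either direction and 806 (10.1%) with a negative fold change. A negative log2 fold change was fitted for 18 of 22 members (81.8%), against 45% of all genes, and the median was -0.18 for the members and 0.02 for all genes. Among the 18, Spo11 passed the dim threshold through its control pools. Its SCARKO pools alone averaged below that threshold on the log2 scale. For no member did the SCARKO and control pools separate completely, and over all genes 2.78% did so in the lower and 2.47% in the higher direction. Within litters, 7 of the 22 members were lower in SCARKO in all 5 pairs, namely Stag3, Rec8, Sycp3, Tex15, Psmc3ip, Mlh3 and Hspa2, against 8.78% of all genes. The members were chosen with earlier results of these data known, and they varied together between pools (mean pairwise Pearson correlation 0.29). They are therefore not 22 independent observations, and the difference between their shares and those of all genes was not tested. When dim probe sets were kept in both the fit and the adjustment, limma called 0 of 28 members, with 5 at an unadjusted p under 0.05.

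**Figure D1:**
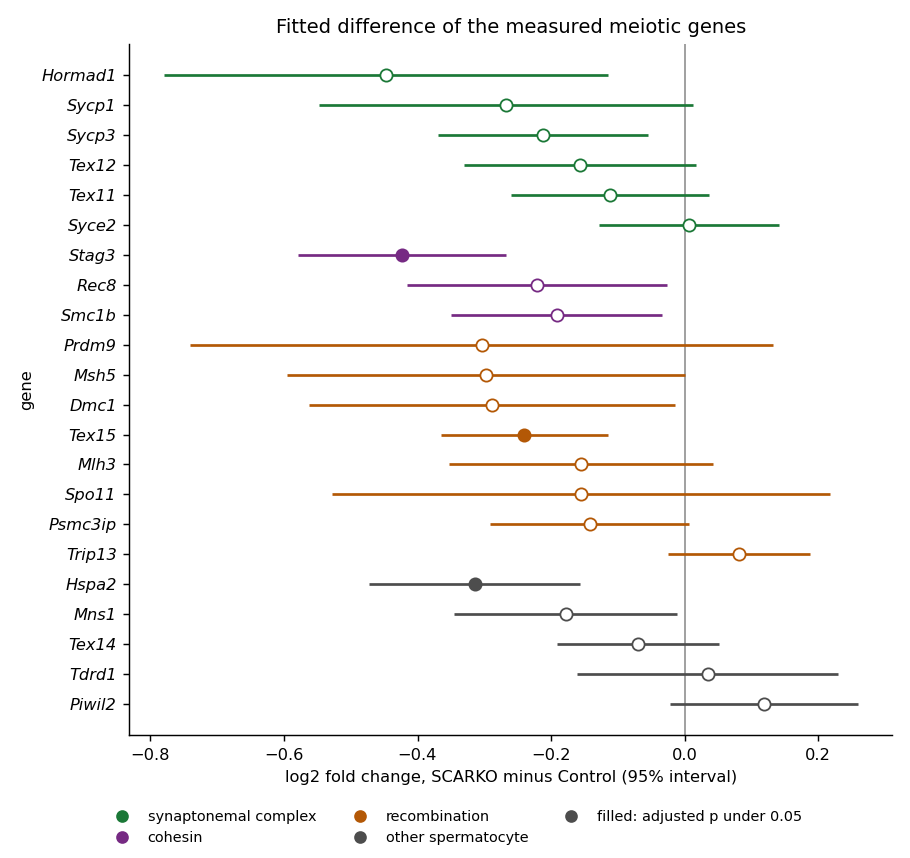
Fitted log2 fold change (x axis, SCARKO minus control, points) with its 95% interval (lines) for the 22 measured meiotic genes (y axis), coloured by role, from 5 littermate pairs. Filled points mark the 3 genes called at an adjusted p under 0.05, Stag3, Tex15 and Hspa2, and 18 of the 22 points lie left of 0.

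Cohesin is the ring that holds sister chromatids together, and meiotic cells replace several of its subunits. Stag3, the meiotic STAG subunit (gene ID 50878, chromosome 5), had signals of 214.6, 209.4, 202, 221.6 and 179.3 in SCARKO pools 1 to 5, against 295.9, 269.3, 341.6, 269.9 and 213.2 in control pools 1 to 5. The 2 groups touched only through control pool 5, the lowest of its group, which lay between the SCARKO pools. Stag3 averaged 205 ± 16.2 in SCARKO pools and 278 ± 46.7 in control pools (SD, n = 5 each), a log2 fold change of -0.42 (SE 0.07, limma adjusted p = 0.0063) that was 25.5% lower in SCARKO. It was lower in all 5 pairs, by 0.25 to 0.76 on the log2 scale, and its call held without any 1 pair (limma adjusted p 0.011 to 0.029). However, Stag3 was not called once dim probe sets were kept in both the fit and the adjustment (limma adjusted p = 0.11).

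Rec8, the meiotic kleisin that closes the ring, had signals of 46.5, 53.5, 56.9, 55.4 and 28.9 in SCARKO pools, against 47.1, 73.1, 64.9, 59.8 and 36.5 in control pools. Both pools of pair 5 were the lowest of their group, and the SCARKO pool was below its littermate control in all 5 pairs. The fitted log2 fold change was -0.22 (SE 0.09, limma adjusted p = 0.18) and did not pass. Smc1b, the meiotic SMC1 subunit, had 206.9, 162.2, 210.3, 229.7 and 150.9 in SCARKO pools and 234.6, 185, 278.3, 209.5 and 187.7 in control pools. Pair 4 ran the other way, and the groups overlapped broadly. Its log2 fold change was -0.19 (SE 0.07, limma adjusted p = 0.16), and without pair 4 it was -0.27 and called (adjusted p = 0.043). All 3 cohesin members were negative.

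The ubiquitous counterparts of these subunits were measured on the same arrays. Log2 fold changes were 0.02 (SE 0.05) for Smc1a, -0.00082 (SE 0.04) for Rad21, 0.04 (SE 0.04) for Stag1 and 0.09 (SE 0.06) for Stag2, with limma adjusted p between 0.40 and 0.99. Stag1 averaged 340 ± 14.4 in SCARKO pools and 331 ± 12.7 in control pools, and Stag2 237 ± 14.1 in SCARKO pools and 223 ± 10.9 in control pools (SD, n = 5 each). None of these 4 passed, and the difference between Stag3 and its counterparts was not tested.

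**Figure D2:**
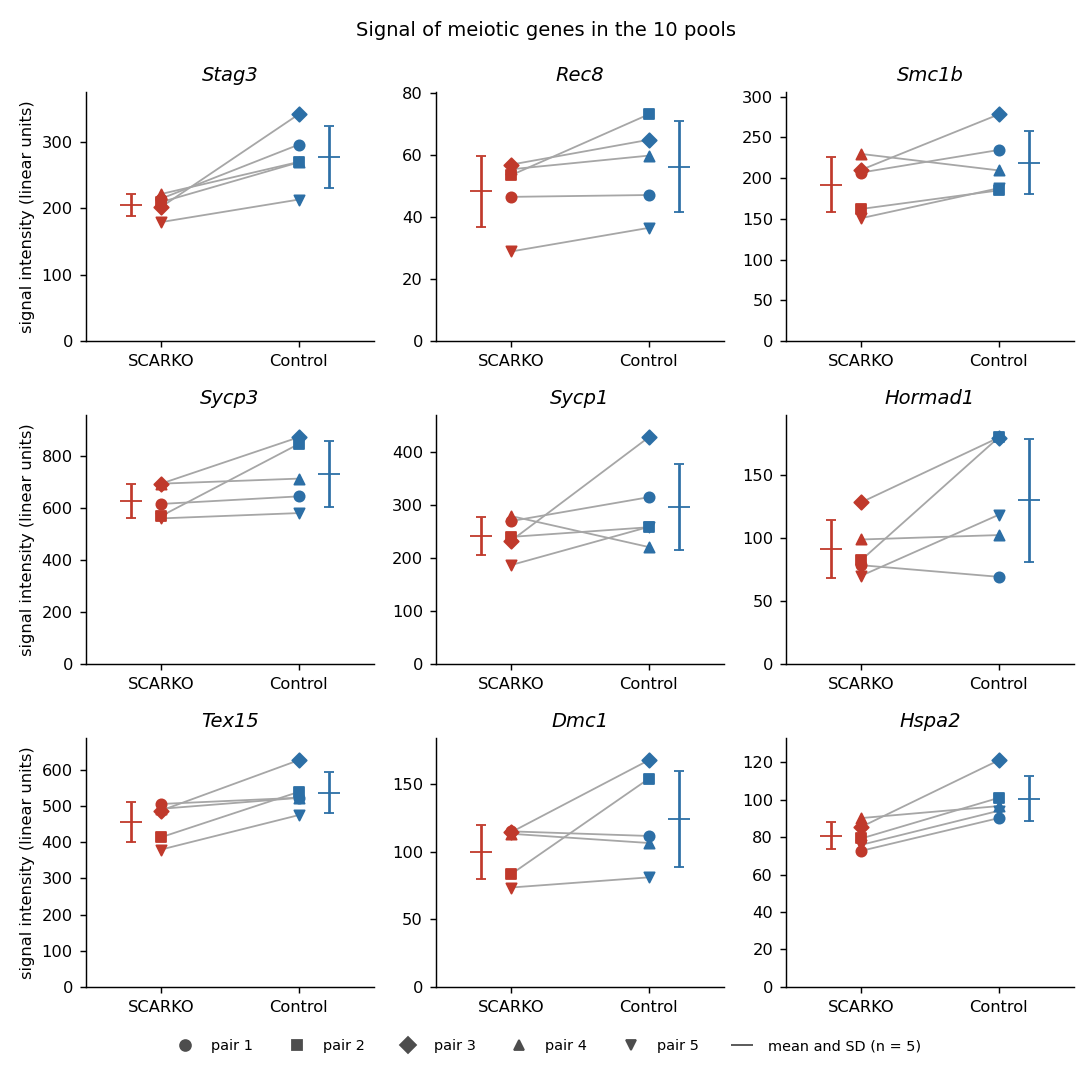
Signal intensity (y axes, linear units from 0) of 9 meiotic genes in SCARKO pools (left, red) and control pools (right, blue), with a line joining littermate pools and the mean and SD (n = 5) beside each group. Stag3, Rec8, Sycp3, Tex15 and Hspa2 are lower in SCARKO in all 5 pairs, whereas 1 pair each of Smc1b, Sycp1 and Hormad1 and 2 pairs of Dmc1 run the other way.

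Genes of the synaptonemal complex and chromosome axis made up 6 measured members, and none was called. Sycp3, a component of the axis and the lateral elements, was the member of this set lower in all 5 pairs. Its signals were 615, 568.3, 692.9, 692.8 and 559.4 in SCARKO pools, against 644, 845, 871, 712.2 and 579.8 in control pools. Control pools 2 and 3 stood well above every SCARKO pool, control pool 4 just above them, and control pools 1 and 5 lay among them. The log2 fold change was -0.21 (SE 0.07, 95% interval -0.37 to -0.05, limma adjusted p = 0.12).

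Hormad1, an axis protein that promotes pairing and break formation, had the lowest fitted value of all members, -0.45 (SE 0.15, limma adjusted p = 0.12). Its signals were 78.3, 82.4, 128.2, 98.7 and 70 in SCARKO pools, against 69.1, 179.7, 179.5, 102.2 and 118.3 in control pools. Pair 1 was higher in SCARKO and pair 2 was lower by 1.12 on the log2 scale, so the spread between pairs was wide. Without pair 1 it was -0.60 and was called (adjusted p = 0.049). Sycp1, which forms the transverse filaments that bridge the homologs, had 269.8, 239.9, 232.8, 279.2 and 186.8 in SCARKO pools and 314.8, 258.1, 427.9, 220.8 and 258.8 in control pools. Control pool 3 was far above the rest, and pair 4 ran the other way. The log2 fold change was -0.27 (SE 0.13, limma adjusted p = 0.26).

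Tex12 and Syce2 encode partner proteins of the central element, which stabilizes the bridge. Tex12 had 227.5, 240, 251.4, 273.2 and 175.2 in SCARKO pools and 230.4, 338.5, 310.9, 251.5 and 185 in control pools. It was lower in 4 of 5 pairs, and its log2 fold change of -0.16 (SE 0.08) had a limma adjusted p of 0.29. Syce2 averaged 698 ± 63 in SCARKO pools and 699 ± 100.2 in control pools (SD, n = 5 each), with a log2 fold change of 0.01 (95% interval -0.13 to 0.14). X-linked Tex11, which promotes crossover formation and was grouped here for its link to synapsis, had -0.11 (SE 0.07, limma adjusted p = 0.38). The difference between the 2 central element genes was not tested.

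Of 8 measured recombination genes, 1 was called and 7 were negative, with a median log2 fold change of -0.20. Tex15, needed for break repair in spermatocytes and for piRNA-directed silencing of transposons (gene ID 104271, chromosome 8), had signals of 505.7, 413.7, 487.5, 492.3 and 379.7 in SCARKO pools, against 522.9, 539, 626.6, 522.5 and 474.8 in control pools. The SCARKO pool was below its littermate in all 5 pairs, while SCARKO pools 1, 3 and 4 lay above control pool 5. Tex15 averaged 456 ± 55.7 in SCARKO pools and 537 ± 55.5 in control pools (SD, n = 5 each), a log2 fold change of -0.24 (SE 0.06, limma adjusted p = 0.034). Tex15 was not called when pair 2, 3 or 5 was left out (adjusted p 0.083 to 0.14), nor when the littermate block was dropped (adjusted p = 0.18).

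Dmc1, the meiotic recombinase that carries out strand exchange with the homolog, had 115, 83.4, 114.4, 113.2 and 73.5 in SCARKO pools and 111.6, 153.9, 167.6, 106.4 and 81 in control pools at its brighter probe set. Pairs 2 and 3 were lower in SCARKO, by 0.88 and 0.55 on the log2 scale, and the other 3 pairs lay between -0.14 and 0.09. The fit gave -0.29 (SE 0.13, limma adjusted p = 0.21), and its dimmer probe set gave -0.19 (SE 0.15), with its own large drop in pair 4 (-1.03) and not in pairs 2 and 3 (-0.05 and -0.01). The 2 probe sets of Dmc1 disagreed on the pairs.

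Spo11, which makes the programmed breaks, ranged from 12.7 to 26.4 in SCARKO pools and from 11 to 34.6 in control pools, around the dim threshold, with a log2 fold change of -0.16 (SE 0.17, limma adjusted p = 0.65). Prdm9, the histone methyltransferase that places the breaks, was as dim, with 13.3 to 28.5 in SCARKO pools and 10 to 33.9 in control pools, and had the widest standard error of the members (-0.30, SE 0.20, limma adjusted p = 0.42). Msh5, a MutS homolog that stabilizes crossover intermediates, had -0.30 (SE 0.14, limma adjusted p = 0.24) and -0.21 (SE 0.15) at its 2 probe sets. The dimmer of these, at -0.21, passed the dim threshold through its control pools. Its SCARKO pools alone averaged below that threshold on the log2 scale. For these 3 genes the 95% intervals reached from -0.53 or below to above 0.

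Psmc3ip (Hop2), the partner that assists Dmc1, had 76.1, 70.5, 77.4, 83.8 and 82.3 in SCARKO pools and 82.1, 78.9, 94.8, 89.3 and 85.4 in control pools, lower in 5 of 5 pairs by a small margin (-0.14, SE 0.07, limma adjusted p = 0.26). Mlh3, a MutL homolog of crossover resolution, was also lower in 5 of 5 pairs, at 40.1 ± 3.11 in SCARKO pools and 44.6 ± 1.12 in control pools (SD, n = 5 each), without passing (-0.16, SE 0.09, limma adjusted p = 0.36). Trip13, an ATPase that removes HORMAD proteins from synapsed axes and also acts in the mitotic checkpoint, pointed up at its brighter probe set (0.08, SE 0.05, limma adjusted p = 0.38), with 0.01 at the other. It was the 1 positive member of the recombination set.

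Among other spermatocyte genes, Hspa2, a chaperone of the Hsp70 family that spermatocytes need to finish prophase (gene ID 15512, chromosome 12), fell. Its signals were 72.7, 79.3, 85.5, 90.2 and 75.9 in SCARKO pools, against 90.2, 101, 121.1, 96.6 and 94.1 in control pools. The groups met at a single value, 90.2, shared by SCARKO pool 4 and control pool 1, and every pair was lower in SCARKO, by 0.10 to 0.50 on the log2 scale. Hspa2 averaged 80.7 ± 7.11 in SCARKO pools and 101 ± 12.1 in control pools (SD, n = 5 each), a log2 fold change of -0.31 (SE 0.07, limma adjusted p = 0.030). Hspa2 was not called when pair 1, 2, 3 or 5 was left out (adjusted p 0.061 to 0.13), nor when the littermate block was dropped (adjusted p = 0.086).

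Mns1, a coiled-coil protein of spermatocytes and cilia, had a log2 fold change of -0.18 (SE 0.08, limma adjusted p = 0.21) and was lower in 4 of 5 pairs. Tex14, which keeps the cytoplasmic bridges between sister germ cells open, had -0.07 (SE 0.06, limma adjusted p = 0.52). Piwil2 and Tdrd1 act in the piRNA pathway that silences transposons and are already active in spermatogonia. Piwil2 had 303.7, 257.1, 296.9, 276.3 and 309.7 in SCARKO pools and 237.6, 259.6, 251.6, 290 and 292.1 in control pools, with a log2 fold change of 0.12 (SE 0.06, limma adjusted p = 0.32). Tdrd1 had 0.03 (SE 0.09, limma adjusted p = 0.87). Both piRNA genes were positive and neither passed.

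The 6 members under the dim threshold were Msh4 and Mnd1 among recombination genes and Piwil1, Ccna1, Ldhc and Pgk2 among spermatocyte genes. Their 7 probe sets had signals of 0.2 to 21 in SCARKO pools and 0.5 to 24.4 in control pools, and no difference was tested. Ldhc and Pgk2 encode germ cell forms of lactate dehydrogenase and phosphoglycerate kinase that are known from later spermatocytes and spermatids. Pgk2 lay at 2.2, 0.2, 0.3, 0.6 and 0.4 in SCARKO pools and at 3.1, 0.5, 2.6, 0.7 and 0.5 in control pools, near the bottom of the scale. Ccna1, the cyclin of late prophase, ranged from 4.2 to 11.1 in SCARKO pools and from 2.4 to 10.1 in control pools. Of 25 spermatid genes on the array, including those of protamines and transition proteins, 20 lay under the same threshold, and 0 of the 5 measured passed limma's test, also before adjustment for multiple tests.

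The members were also described pair by pair, with 1 pool per group in each pair. The median log2 ratio of the 22 measured members, SCARKO over control, was -0.03, -0.36, -0.35, -0.06 and -0.09 in pairs 1 to 5, and 13, 20, 19, 15 and 14 members were lower. Over all 7973 genes the pair medians lay between 0.01 and 0.03, and 3861, 3787, 3815, 3511 and 3712 genes were lower in pairs 1 to 5. The members' median was lowest in pairs 2 and 3. The SD of the 5 pair medians was 0.16 for the members, 0.18 for macrophage, 0.15 for Leydig and 0.05 for spermatogonial markers. A difference between litters was not tested. In pair 5, whose labels agree, 14 of 22 members were lower, and the log2 ratios were -0.25 for Stag3, -0.31 for Hspa2 and -0.32 for Tex15. These 3 genes were picked as called in a fit that includes pair 5, so their direction there is not separate evidence.

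**Figure D3:**
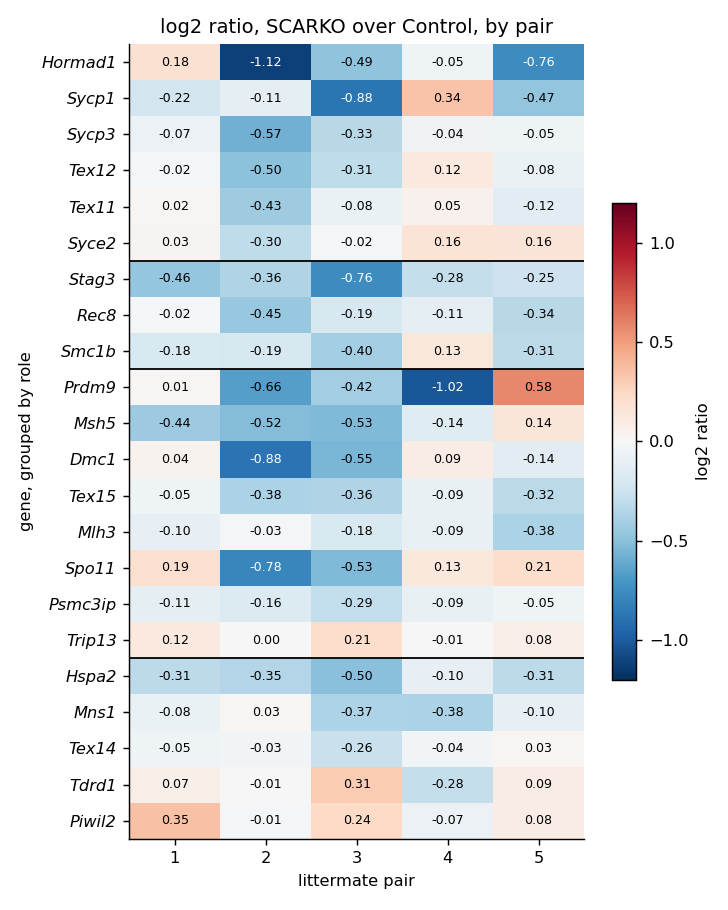
Log2 ratio of SCARKO over control signal for each of the 22 measured meiotic genes (rows, with lines between the synaptonemal complex, cohesin, recombination and other spermatocyte sets) in littermate pairs 1 to 5 (columns), blue where SCARKO was lower and red where it was higher. Pairs 2 and 3 are blue for 20 and 19 genes, while Stag3 and Hspa2 are blue in all 5 columns.

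Members also varied together between pools. Taking each gene's deviation from its own 10-pool mean on the log2 scale, the synaptonemal complex set averaged -0.12, -0.16, 0.05, 0.09 and -0.35 in SCARKO pools 1 to 5, against -0.11, 0.34, 0.40, -0.01 and -0.13 in control pools 1 to 5. The recombination set averaged 0.06, -0.15, 0.06, -0.07 and -0.35 in SCARKO pools and 0.10, 0.27, 0.39, 0.08 and -0.37 in control pools. Both sets were highest in control pools 2 and 3 and lowest of their group in both pools of pair 5. Cohesin genes had -0.55 in SCARKO pool 5 and -0.25 in control pool 5, the lowest of each group. The labels give 10 days for every pool, and the part of litter in these levels was not tested.

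As a description over the 10 pools, which include littermates and share the array scaling, the mean pairwise Pearson correlation was 0.29 among the 22 members, 0.61 within the synaptonemal complex set, 0.63 within cohesin, 0.33 within recombination and -0.12 within the other spermatocyte set, against 0.0041 over all genes. It was 0.55 among the 8 macrophage markers and 0.28 among the 8 myoid markers. Tex12 and Rec8 were the most alike (r = 0.96), followed by Sycp3 and Dmc1 (r = 0.94). Of the 22 members, 18 correlated positively with the mean of the others, 8 of them above 0.8, led by Dmc1 (0.96), Sycp3 (0.95) and Tex15 (0.91). Mns1, Trip13, Piwil2 and Tdrd1 correlated negatively with it (-0.17, -0.31, -0.56 and -0.68). All of these correlations include the difference between SCARKO and control pools, which was not removed.

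**Figure D4:**
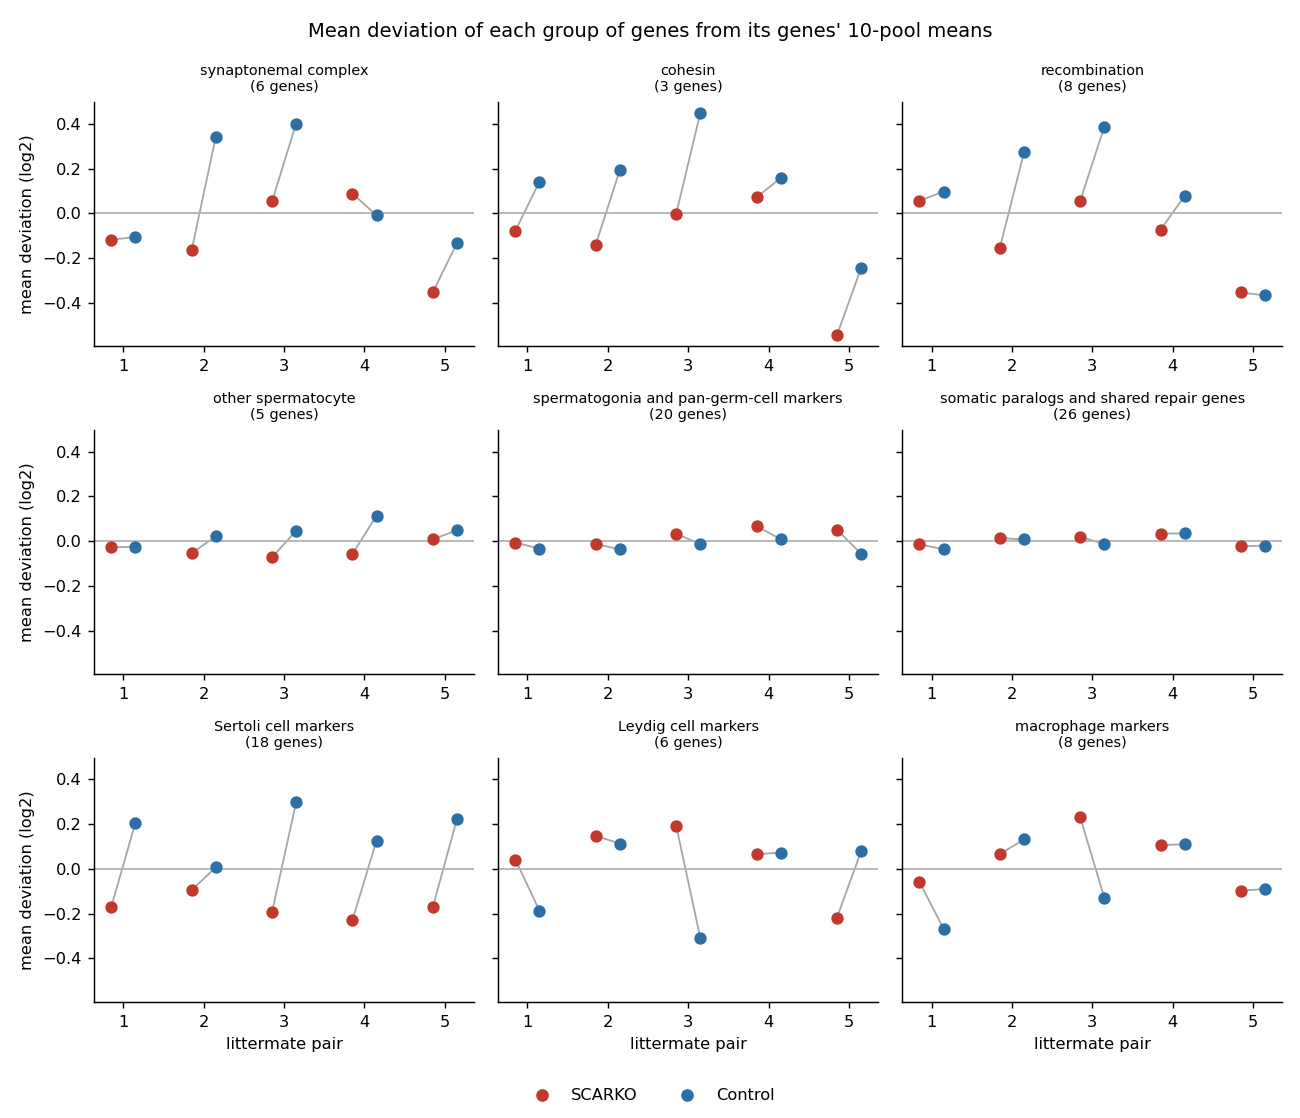
Mean log2 deviation of a set's genes from their own means over the 10 pools (y axes) for SCARKO (red, left of each pair) and control (blue, right) pools of littermate pairs 1 to 5 (x axes). The synaptonemal complex, cohesin and recombination sets (6, 3 and 8 genes) range from -0.55 to 0.45. The other spermatocyte set (5 genes) ranges from -0.07 to 0.11. The spermatogonial markers and somatic paralogs (20 and 26 genes) stay between -0.06 and 0.07, and means over more genes tend to vary less. The Sertoli, Leydig and macrophage markers (18, 6 and 8 genes) lie between -0.31 and 0.30, and the Sertoli mean includes Rhox5 (log2 fold change -4.17).

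Markers of other cell types were set beside the members. Of 20 measured spermatogonial and pan-germ-cell markers, 0 passed limma's test, although 4 (20%, against 21.7% of all genes) had an unadjusted p under 0.05, and their median log2 fold change was 0.06. Their summed signal ranged from 6598 to 7089 in SCARKO pools and from 6214 to 6942 in control pools. Smallest in p were Uchl1, a spermatogonial ubiquitin hydrolase (0.13, adjusted p = 0.083), Dnd1 (0.24, 0.18) and Tex101 (-0.29, 0.20). Sertoli cell markers moved both ways, with 5 lower and 3 higher of 18 called, a median of -0.05 and a summed signal of 10032 to 10457 in SCARKO pools and 10410 to 11252 in control pools. The falls were Rhox5, Nr0b1 (-0.86), Cldn11 (-0.68), Gata1 (-0.50) and Amhr2 (-0.43), and the rises Fshr (0.42), Gdnf (0.39) and Kitl (0.24). By limma, 0 of 6 Leydig, 8 myoid, 8 macrophage and 6 endothelial markers passed (2, 2, 2 and 1 before adjustment) and the list medians were 0.01, -0.12, 0.10 and 0.02. In these 4 lists the smallest p belonged to Hsd17b3 (0.50), Mylk (-0.17), C1qa (0.17) and Sox18 (0.19). The mean deviation of a list from its genes' own means ranged over the 10 pools from -0.31 to 0.19 (log2) for Leydig, from -0.27 to 0.23 for macrophage and from -0.26 to 0.08 for myoid markers. For Sertoli cell markers it was -0.23 to -0.10 in SCARKO pools and 0.0072 to 0.30 in control pools. That mean includes Rhox5 (-4.17), by far the largest change of the list, while 11 of the 18 genes were negative and 7 positive. The 3 erythroid markers on the array lay under the dim threshold. For the array's Gapdh control, the signal of the 3′ over the 5′ probe set ranged from 0.618 to 0.657 in SCARKO pools and from 0.611 to 0.640 in control pools. For the beta-actin control it ranged from 1.16 to 1.32 in SCARKO pools and from 1.21 to 1.30 in control pools, and was highest in pool 5 of each group. The part of these in the members' changes was not tested.

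Other meiotic and piRNA genes, outside the members, were split in direction. Of 14 measured, 7 were negative and 7 positive, with a median log2 fold change of 0.01, and Sun2, a nuclear envelope protein that links meiotic telomeres to the cytoskeleton and is also present in somatic cells, was the 1 called member. It averaged 177 ± 10.5 in SCARKO pools and 240 ± 12.3 in control pools (SD, n = 5 each), a fall of 0.44 on the log2 scale (SE 0.06, limma adjusted p = 0.0019). Of 26 somatic paralogs and shared repair genes, 2 were called lower and 1 higher, with a median of 0.03. The falls were Ldhb (-0.25, adjusted p = 0.011), a somatic lactate dehydrogenase subunit, and Hspa1b (-0.29, adjusted p = 0.010), a heat-inducible relative of Hspa2 whose near-identical copy Hspa1a may share its signal. Ccna2, the mitotic relative of Ccna1, rose by 0.20 (adjusted p = 0.034). Hspa8, the constitutive Hsp70, had 0.12 (adjusted p = 0.066), Ldha 0.21 (0.064) and Pgk1 -0.17 (0.11). These relatives of the members pointed in both directions.

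Over the 10 pools, the genes whose log2 signal was most like that of Stag3 were Itpka (r = 0.95), Strn3 (0.93), Amhr2, the anti-Müllerian hormone receptor gene (0.92), Tmsb4x (0.92) and Ino80 (0.92). Among the 100 most alike of 7972 genes, 45 were called in either direction (5.69% of all genes were) and 1 was a member, Tex15 (r = 0.87), with Hspa2 at rank 105 (r = 0.82). Rec8 and Smc1b, the other cohesin members, had r = 0.63 and 0.75 with Stag3. The correlation includes the difference between the 2 groups, which Stag3 shares with every gene that fell.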

How the data were processed

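Gene expression was measured on Affymetrix arrays in 10 pools of mouse testis RNA. The deposited signal intensities are linear, with 1 value per probe set, and were made by the authors with MAS5 for 8 arrays, per the submitters' processing notes. For pair 5 no tool is named there. The mean after trimming 2% at each end was 100.03 on every array, and between 6.73% and 7.99% of values lay under 1. Intensities have no counting depth, so the 5 pools per group limit the precision.

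Groups and pair numbers came from the titles. Probe sets were named by the platform's annotation table, with symbols brought to GRCm38.p6 by gene ID: of 22690 probe sets, 64 were controls, 20380 named 1 gene, 691 several and 1555 none. A floor of 1 was set before taking log2. The lowest 40% of probe sets by mean log2 value were left out, which kept 13576. Limma 3.58.1 in R 4.3.3 was fitted with the pair as a block and an intensity trend, two-sided, and tested on simulated data. The littermate pairing is stated by the labels' protocols. Deviations from group means correlated between same-numbered pools (r = 0.27, 0.19, 0.19, 0.11 and 0.39 for pairs 1 to 5). For the same SCARKO pools, the highest r with a control pool of another pair was -0.01, 0.02, 0.08, 0.11 and -0.04. In pair 4 the 2 values were nearly equal (0.1093 and 0.1091).

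The members and all gene lists were chosen with earlier results of these data known. All 34 members are accounted for by name; of other lists, called genes, otherwise up to 3 with the smallest p, and the members' somatic paralogs are named. Likeness to Stag3 was ranked by Pearson correlation and the first 5 genes named. Fits without the block, with quantile normalization, with 16 added before log2, with no or a 60% filter, with averaged probe sets and without each pair were alternatives.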

Additional observations from a re-analysis of the deposited data

Results flagged for a closer look

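Of 56 sets of 5 pools tested (28 genes in each group), 3 held a pool far from the other 4, where chance gives about 1 in 20. Prdm9 had a signal of 10 in control pool 5, against 27 in the next lowest control pool. Ccna1 had 11.1 in SCARKO pool 3, against 6.2 in the next highest SCARKO pool, and Pgk2 had 2.2 in SCARKO pool 1, against 0.6. Ccna1 and Pgk2 lay under the dim threshold in every pool.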

How the results depend on the processing

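Without the littermate block 404 probe sets and 1 member, Stag3, were called lower or higher. Without the filter on dim probe sets, 38 probe sets and 0 of 28 members were called. In that setting 5 members had an unadjusted p under 0.05 by limma (Stag3 adjusted p = 0.11). It both refits and adjusts over 22626 probe sets, so unadjusted p values change as well. All other processing alternatives (quantile normalization, 16 added before log2, the lowest 60% left out, averaged probe sets) kept Stag3, Tex15 and Hspa2 as the 3 called members. With 1 pair left out, 304 to 743 probe sets were called in either direction and 1 to 4 members were called lower: Stag3 alone without pair 2, 3 or 5, Hormad1, Stag3 and Tex15 without pair 1, and Smc1b, Stag3, Tex15 and Hspa2 without pair 4. No member was called higher in any setting. The members' median stayed between -0.23 and -0.13 on the log2 scale over the 5 fits without 1 pair. Signs turned in 4 of these values, none called: Syce2 was -0.032 without pair 4 and -0.031 without pair 5 (range -0.032 to 0.085 over the 5 fits), Spo11 was 0.00087 without pair 2 (range -0.25 to 0.00087), and Tdrd1 was -0.033 without pair 3 (range -0.033 to 0.11). The cause was not tested. Members near the dim threshold (Spo11, Prdm9, Msh5) have wide intervals, and 5 pairs limit what can be detected.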
